A study of Mus musculus with 10 samples.

Results

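The 2 hour point of an acute SOX2 depletion was compared with untreated cells, to learn which genes and functions rose and fell by this time. Of the 10 samples of the series, 4 belong to the comparison: the 2 replicates labelled NT and the 2 replicates collected 2 hours post depletion (hpd). All samples came from E14 mouse embryonic stem cells (mESC) of the SOX2-FKBP genotype, picked as homozygous clones that respond to the degrader, in which the SOX2 protein carries an FKBP degron. Untreated and treated cells alike therefore carry the tagged protein. The small molecule dTAG-13 binds the FKBP tag and sends the protein to the proteasome. The 2 hpd cells received 500 nM dTAG-13 and the NT cells its solvent DMSO. All cells were grown on gelatin without serum or feeder cells, with LIF, the MEK inhibitor PD0325901 and the GSK3 inhibitor CHIR99021. According to the methods of the study, medium was renewed before treatment, and the depletions started one after another so that all could be harvested at the end. Cells without the tag that were given dTAG-13 are not analysed here, so an effect of the molecule itself cannot be told apart from that of the loss of SOX2.

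Nascent RNA was read with TT_chem-seq. New RNA is labelled with 4-thiouridine, here 2 mM for 10 min, then fragmented, captured and sequenced, so that the values describe current transcription and not the pool of stable mRNA. The features are transcribed units (TUs), stretches of continuous signal on 1 strand that the authors defined from the data of all samples. Of 40779 TUs, the 28459 with more than 10 fragments in at least 2 of the 10 samples were tested. Of these, 14997 carry a gene symbol and 13462 do not. Levels are given in CPM, fragments scaled to a common library size, which makes them shares of a library: a change in the total output of the cells is not seen in them, and fewer cells making an RNA cannot be told apart from less of it per cell.

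SOX2 is a DNA-binding protein of the HMG box family that can engage its sites in closed chromatin. In mESC it binds together with OCT4, at a composite motif, in enhancers of genes that keep the cells pluripotent, many of which encode further transcription factors of the same network. Among the genes that moved here was also the mevalonate pathway, which makes cholesterol. Its enzymes are known targets of SREBP2, a membrane-bound factor that is released when sterols in the endoplasmic reticulum are low and that works with the general promoter factor NF-Y.

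The NT samples held 14420634 and 13053099 fragments and the 2 hpd samples 21726623 and 16809550. Replicates of each group correlated at 0.985 to 0.990 over log2 CPM (2 hpd 0.989), and their chi-square statistic over TUs, divided by its degrees of freedom, was 11 at 2 hpd and 3.08 to 8.17 elsewhere. That ratio grows with depth, and no pair agreed within sampling noise. The labels do not say whether replicates are separate cultures, so p-values measure the spread between these samples only. The pluripotency genes that define mESC were measured: all 23 listed members passed the count filter. Of markers of other lineages, 5 of 20 neural, 8 of 20 mesoderm and definitive endoderm, 7 of 18 fibroblast, 10 of 21 trophoblast and 13 of 21 primitive endoderm genes passed it. The summed level of the 7 fibroblast markers tested was 61.7 and 56.9 CPM in NT and 71.3 and 64.8 CPM at 2 hpd. The transcript of Sox2 itself, which dTAG-13 does not target, stood at 243 and 283 CPM in NT and 273 and 288 CPM at 2 hpd. These groups overlapped, and the log2 difference of 0.09 ± 0.11 (SE) had an adjusted p of 0.657 and turned to -0.02 with libraries scaled by total counts only. The protein was not measured in these data.

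At 2 hpd, 2798 TUs were called changed, which is 9.83% of those tested. Of them 1213 (4.26%) rose and 1585 (5.57%) fell, at an adjusted p under 0.05 in the quasi-likelihood test of edgeR with Benjamini-Hochberg adjustment over all TUs. Decreases were the larger ones: 967 TUs fell by more than 2-fold and 257 rose by as much. In all 2798 both 2 hpd samples lay outside the range of the NT samples. The balance of the directions depended on the method and on the scaling. Decreases were 56.6% of the calls here and 53.2% with the scaling of DESeq2 in edgeR (1305 up, 1482 down). In DESeq2 itself they were 44.1% (1336 up, 1056 down). With libraries scaled by total counts only they were 71.2% (835 up, 2066 down). That scaling moved the median change of all TUs from -0.04 to -0.16 on the log2 scale. Without NT replicate 2, 387 rose and 796 fell (67.3% decreases), without 2 hpd replicate 1, 563 rose and 866 fell, without NT replicate 1, 754 rose, and without 2 hpd replicate 2, 2065 rose and 1654 fell (44.5% decreases). Just inside the threshold lay Prkcz, at an adjusted p of 0.0499, and just outside it Slc25a18, at 0.0502.

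**Figure D1:**
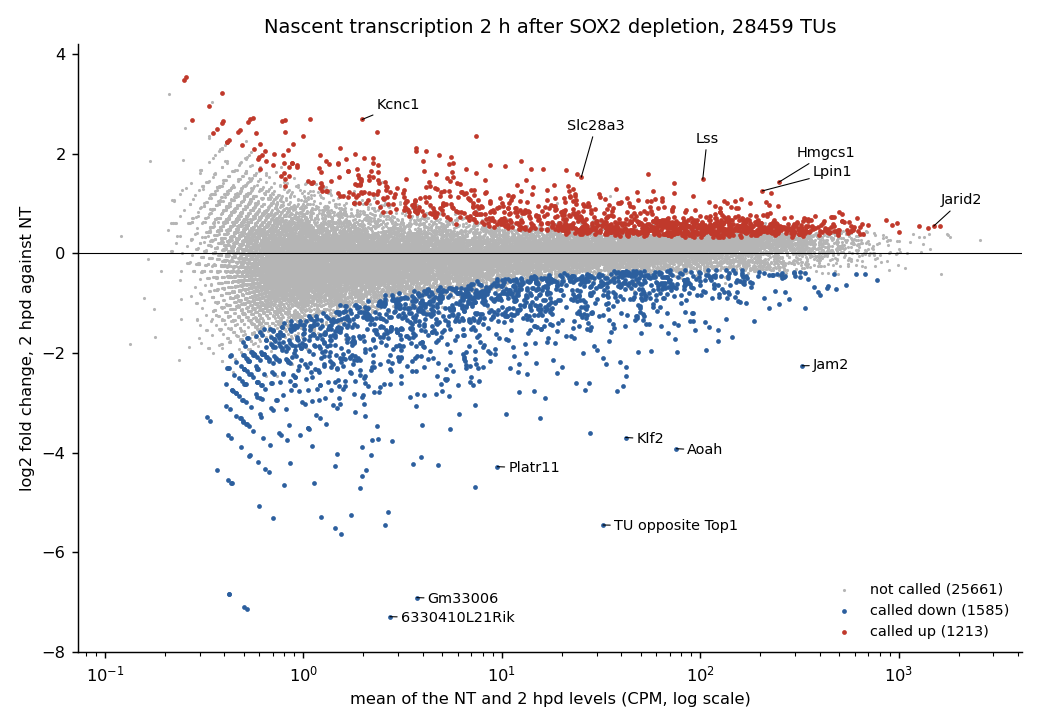
Each point is a TU, placed by its mean level over NT and 2 hpd (CPM, log scale) and its log2 fold change at 2 hpd against NT, and coloured by its call. The points that fell reach past -7 on the log2 scale, while among those with a mean over 10 CPM none of the labelled increases reaches 2.

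The genes that fell with the smallest p were led by Aoah, which encodes an enzyme that removes acyl chains from bacterial lipopolysaccharide. Its TU held 139.7 and 145 CPM in the NT samples and 9.61 and 9.18 CPM at 2 hpd. The groups are far apart and the replicates close, with a log2 fold change of -3.92 ± 0.12 (SE, adjusted p = 8.61e-11). This TU starts 85.3 kb inside the annotated gene, and no other tested TU starts within 50 kb of it. Klf2, a transcription factor of naive pluripotency, went from 76.9 and 79.1 CPM to 5.26 and 6.84 CPM, a log2 fold change of -3.69 ± 0.14 (adjusted p = 7.51e-10). Prickle2, a component of planar cell polarity, had 115 and 128 CPM in NT and 31.3 and 30.4 CPM at 2 hpd. Platr11, a non-coding RNA linked to pluripotency, had 17 and 19.1 CPM in NT and 0.859 and 0.994 CPM at 2 hpd and fell by 4.28 on the log2 scale. Its TU starts 39.8 kb inside the annotated transcript.

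The other leading decreases have varied roles. Jam2, a junctional adhesion molecule, stood at 531 and 545 CPM in NT and at 113 and 112 CPM at 2 hpd (log2 fold change -2.26 ± 0.13, SE). Cdc42ep3, an effector of the small GTPase CDC42, stood at 36.8 and 44 CPM and then at 5.71 and 7.6 CPM (-2.61 ± 0.17). Adap1, which regulates ARF6, went from 50.3 and 44.3 CPM to 8.34 and 7.19 CPM (-2.60 ± 0.16). In each of these 3 genes the replicates of a group differ little beside the distance between the groups. Mroh4 and the non-coding genes 2500002B13Rik, Gm36038 and Gm33006 completed the set, with log2 fold changes of -2.75, -2.76, -1.94 and -6.91. Ttn, the giant protein of the muscle sarcomere, was also among them (58.6 and 69.6 CPM against 15.3 and 13.1 CPM), but its TU starts 174.5 kb inside the gene and covers only its distal part. None of the 12 lost its call under any alternative setting. They were chosen for the smallest p in these same samples, so this adds no independent support.

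**Figure D2:**
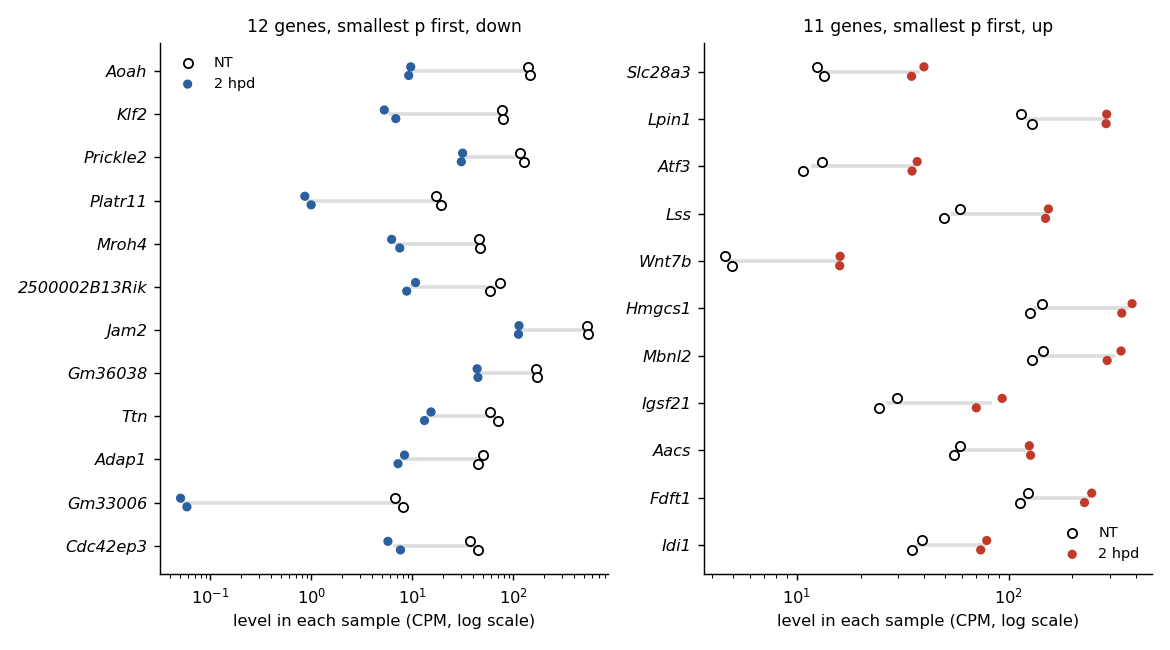
Levels in each sample (CPM, log scale) of the 12 genes with the smallest p among decreases and 11 of the 12 among increases, with open circles for the NT replicates, filled circles for the 2 hpd replicates and a grey bar between the group means. In all of these genes the groups are separate, and Gm33006 lies lowest at 2 hpd with 0.0506 and 0.0584 CPM.

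A few transcripts were close to lost at 2 hpd. The largest fitted decrease was that of 6330410L21Rik, which had 48 and 105 fragments in NT and 0 and 1 at 2 hpd. After scaling for library size the NT level was 197 times that at 2 hpd, with a 95% exact interval of 34.8 to 7833 that covers counting error only. Gm33006 had 99 and 112 fragments in NT and 1 in each 2 hpd sample, a ratio of 136 (37.2 to 1129). Cabs1, known from spermatids, had 41 and 46 fragments and then 2 and 0, a ratio of 56.0 (15.1 to 470). Gm33105 had 41 and 28 fragments and then 1 in each sample, a ratio of 44.4 (11.8 to 374). These intervals are wide because few fragments remained, and the order of the 4 genes cannot be read from them.

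The Klf2 locus held further TUs that fell. An extragenic TU that starts 14834 bp past the start of Klf2, on the same strand and opposite Eps15l1 (chr8:72333782-72336765 on mm10, transcribed-unit_18089), had 17 and 12 fragments in NT and 0 in both 2 hpd samples (adjusted p = 0.000537). Against a floor of 3 fragments over the group, it was at least 12.4-fold lower, and the exact lower limit that includes counting error in NT was 9.49. Another extragenic TU, transcribed-unit_19064, starts 47607 bp upstream on the other strand and had 1.14 and 0.799 CPM in NT and 0.0506 and 0.351 CPM at 2 hpd (adjusted p = 0.027), a call that was lost without NT replicate 1, without NT replicate 2 or without 2 hpd replicate 1. Both extragenic TUs passed the count filter through the NT samples alone. The filter therefore favoured a decrease, and their p-values are not read as support for one. The divergent TU that starts 212 bp from Klf2 held 1.28 and 1.67 CPM and then 1.21 and 1.34 CPM, with groups that overlap. The RefSeq promoter of Klf2 (chr8:72318812-72319111, plus strand, GRCm38.p6, the patch release of mm10) is shown because its gene had the second smallest p among genes. It held neither the octamer ATGCAAAT, the OCT4 part of the composite site, nor the SOX core CATTGT on either strand.
Klf2: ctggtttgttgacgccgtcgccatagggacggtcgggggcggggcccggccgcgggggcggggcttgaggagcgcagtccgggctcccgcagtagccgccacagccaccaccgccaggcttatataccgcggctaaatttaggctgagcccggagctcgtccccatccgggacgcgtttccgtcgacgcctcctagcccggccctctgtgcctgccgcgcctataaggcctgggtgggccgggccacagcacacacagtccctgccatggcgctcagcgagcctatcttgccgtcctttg

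Klf2 was 1 of 12 pluripotency factors that fell. Of 23 core and naive factors, 12 were called down and 0 up, where 5.34% of gene TUs fell and 6.88% rose. Their median log2 fold change was -0.39 against -0.04 over all TUs tested. Prdm14, which restrains differentiation signals, stood at 62.9 and 72.7 CPM in NT and 27.1 and 28.3 CPM at 2 hpd (-1.29 ± 0.11, SE). Nr0b1, an orphan nuclear receptor, went from 22.4 and 29.9 CPM to 8.59 and 10.6 CPM (-1.45 ± 0.17). Both 2 hpd samples were below both NT samples in each of these genes. The master factors moved less. Nanog had 404 and 413 CPM in NT and 279 and 296 CPM at 2 hpd (-0.51 ± 0.11, adjusted p = 0.00642). Pou5f1, which encodes OCT4, had 151 and 166 CPM and then 116 and 127 CPM (-0.39 ± 0.11, adjusted p = 0.0325). Its TU starts 20268 bp before the RefSeq start of the gene, so these values take in upstream signal. Zfp42 and Tfcp2l1 were not called, at 0.02 ± 0.12 and 0.09 ± 0.11. Klf4 is given with the LIF pathway below, and other called members were Mybl2, Tcl1, Myb, Zscan10 and Tbx3 (-0.70, -0.89, -2.56, -0.39 and -0.41). These, and the 4 genes before them, were named after their values were seen. The list, like those that follow, was written with earlier results of these samples known.

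Genes known as joint targets of SOX2 and OCT4 or as stem cell markers also fell more often than they rose. Of 25 tested, 13 were called down and 3 up, beside 5.34% and 6.88% over gene TUs, with a median of -0.55. Fgf4, the growth factor whose enhancer is the classical SOX2 and OCT4 site, stood at 137 and 127 CPM in NT and 45.5 and 58.4 CPM at 2 hpd (-1.35 ± 0.13, SE). Spp1, the secreted protein osteopontin, went from 187 and 198 CPM to 72.8 and 80.6 CPM (-1.33 ± 0.11). Upp1, a uridine phosphorylase, went from 188 and 177 CPM to 65.4 and 59.7 CPM (-1.54 ± 0.13). In these genes the groups do not overlap. The 3 that rose were Trim6, Cdh1 and Jarid2, at 0.47, 0.48 and 0.55. Cdh1, the adhesion protein E-cadherin, and Jarid2, a Polycomb cofactor, lost their calls without 2 hpd replicate 1, which left 1 of the list called up. Pecam1, Dppa2, Utf1, Dppa5a, L1td1 and Fbxo15, picked out after their values were seen, completed the decreases at -0.40 to -1.19, beside genes of other lists. Of 15 Platr transcripts tested, a set of non-coding RNAs named for pluripotency, 6 were called down and 0 up (7.62% and 4.15% over lncRNA TUs). Besides Platr11 these included Platr10 (98.7 and 108 CPM against 30.1 and 38 CPM), Platr6 (11 and 14.3 against 3.39 and 3.74) and Platr26 (9.22 and 10.7 against 2.93 and 4.73), while the median of the set was -0.15.

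Markers of the next developmental states moved in both directions. In the formative and primed list, 4 of 13 tested genes fell and 1 rose, where 5.34% of gene TUs fell and 6.88% rose. Zic5 and Zic2, neighbouring zinc finger genes, led the decreases, Zic5 from 28.2 and 31 CPM to 6.72 and 6.66 CPM and Zic2 from 27.1 and 25.4 CPM to 7.53 and 7.66 CPM. Otx2, a homeobox factor of the epiblast, went from 8.48 and 9.23 CPM to 4.2 and 3.74 CPM. No 2 hpd sample of these 3 reached an NT sample. The gene that rose was Pou3f1, the POU factor OCT6, at 0.202 and 0.363 CPM in NT and 1.16 and 0.877 CPM at 2 hpd. Its call rests on few fragments and was lost in DESeq2 and without NT replicate 1, NT replicate 2 or 2 hpd replicate 1. The neural markers Nes and Tubb3 fell (-0.87 ± 0.16 and -0.72 ± 0.14, SE) and the other 3 neural genes tested were not called.

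A few markers of other lineages rose. Eomes, a T-box factor of trophoblast and mesendoderm, had 2.15 and 2.69 CPM in NT and 7.63 and 9.18 CPM at 2 hpd, with no overlap (1.79 ± 0.20, SE, adjusted p = 3.98e-05). Dab2, an endocytic adaptor of primitive endoderm, went from 12.7 and 13.7 CPM to 30.1 and 34.6 CPM (1.30 ± 0.15), and Sparc, a matrix protein, from 81.8 and 84.7 CPM to 137 and 144 CPM. Gata6, a defining factor of that lineage, had 1.14 and 1.16 CPM and then 2.68 and 2.4 CPM, but was not called in DESeq2, with total counts only, or without NT replicate 1, NT replicate 2 or 2 hpd replicate 1. Lama1, a laminin chain of the same lineage, moved the other way, from 61.3 and 58.7 CPM to 33.6 and 29.8 CPM. In all, 3 of 13 primitive endoderm, 2 of 10 trophoblast and 2 of 8 mesoderm and definitive endoderm genes rose, and 1, 2 and 1 fell, where over all gene TUs 6.88% rose and 5.34% fell, so these counts of 1 to 3 say little about the lists. In the trophoblast list 1 rose with total counts only or without NT replicate 1, NT replicate 2 or 2 hpd replicate 2, and 1 fell without NT replicate 1. In the mesoderm list 1 rose without NT replicate 2 or 2 hpd replicate 1, and 0 fell without NT replicate 2. Krt8, a keratin of trophoblast, was among those that fell (-1.95 ± 0.28). Among 7 fibroblast markers, Pdgfrb rose (11.8 and 8.57 CPM against 28.6 and 24.3 CPM) and Vim fell (18.5 and 11.7 CPM against 8.34 and 7.31 CPM, not called without NT replicate 1). The collagen gene Col1a1, a defining fibroblast marker picked after its value was seen, held 0.471 and 0.872 CPM in NT and 0.809 and 0.818 CPM at 2 hpd, and Col1a2, Col3a1, Dcn, Thy1 and Postn did not pass the count filter. Of the Sox family, 8 of 20 genes were tested and 0 called. The smallest p was that of Sox21 (1.68 and 2.76 CPM against 0.910 and 1.17 CPM, adjusted p = 0.0607), and without NT replicate 1 it was called down and 1 other gene of the family up.

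The increases were led by a transporter and by enzymes of lipid synthesis. Slc28a3, a concentrative nucleoside transporter, had the smallest p, with 12.5 and 13.4 CPM in NT and 39.8 and 34.8 CPM at 2 hpd (1.53 ± 0.13, SE, adjusted p = 2.58e-06). The other 3 tested TUs that start within 50 kb, all on the opposite strand, were not called. Lpin1, a phosphatidate phosphatase, followed with 114 and 128 CPM and 290.1 and 288 CPM (1.25 ± 0.11). Atf3, a transcription factor induced by many stresses, went from 13.2 and 10.7 CPM to 37 and 35 CPM (1.59 ± 0.14). Wnt7b, a secreted Wnt ligand, went from 4.58 and 4.94 CPM to 16 and 16 CPM (1.75 ± 0.16). In all of these both 2 hpd samples lay well above both NT samples. Mbnl2, a splicing regulator, and Igsf21, a synaptic adhesion protein, belong to the same set, Mbnl2 with 145 and 129 CPM in NT and 339 and 292 CPM at 2 hpd, and Igsf21 with 29.6 and 24.5 and 93.2 and 70.4 CPM. Aacs, which feeds ketone bodies into lipid synthesis, had 58.9 and 54.9 CPM and then 125 and 127 CPM. None of the 12 leading increases lost its call under an alternative, but they too were chosen for the smallest p in these samples.

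The largest increases among genes with at least 2 CPM in the higher group were smaller than the decreases. Kcnc1, a voltage-gated potassium channel, rose from 0.538 and 0.509 CPM to 2.83 and 4.03 CPM, a log2 fold change of 2.69 ± 0.40 (SE). Wnt16, another Wnt ligand, went from 0.673 and 0.799 CPM to 4.85 and 3.1 CPM (2.43 ± 0.34). Crym, a thyroid hormone binding protein, went from 0.337 and 0.799 CPM to 1.92 and 3.04 CPM (2.1 ± 0.39), and Stum from 1.62 and 1.16 CPM to 6.22 and 5.84 CPM (2.11 ± 0.24). In all 4 both 2 hpd samples lay above both NT samples.

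Most genes of cholesterol biosynthesis rose. Of 24 listed genes, all of which were tested, 20 rose and 0 fell, beside 6.88% and 5.34% over gene TUs. The list had a median log2 fold change of 0.81. Its summed level was 1672 and 1463 CPM in NT against 3006 and 2760 CPM at 2 hpd. The study had already noted these genes in the same samples, so the count is not independent evidence of their direction. Hmgcs1, which makes HMG-CoA at the entry of the pathway, had 143 and 127 CPM in NT and 382 and 342 CPM at 2 hpd (1.43 ± 0.13, SE, adjusted p = 4.9e-06). Further along, Idi1, the isopentenyl diphosphate isomerase, went from 38.8 and 35 CPM to 78.8 and 73.8 CPM (1.05 ± 0.10), and Fdft1, squalene synthase, from 123 and 113 CPM to 247 and 228 CPM (1.01 ± 0.10). Lss, which forms the first sterol, lanosterol, had the highest fold change of the list, from 58.6 and 49.6 CPM to 154 and 149 CPM (1.49 ± 0.13). In these 4 genes the groups were separate by more than the spread within either. The 4 members that were not called were Ggps1 and Pdss1, which serve other branches of the pathway, and Tm7sf2 and Ebp, which act on late sterols. Their values were 0.09 ± 0.13, -0.01 ± 0.14, 0.40 ± 0.15 and -0.07 ± 0.14 (SE), and they were named after they were seen.

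Regulators of sterol supply moved in both directions. Of 17 tested genes of sterol sensing and uptake, 6 rose and 3 fell, beside 6.88% and 5.34% over gene TUs. The increases included Insig1, an anchor of SREBP in the endoplasmic reticulum (89.3 and 82.1 CPM against 176 and 179 CPM), Srebf2, which encodes SREBP2 itself (279 and 254 against 439 and 416), and Stard4, a sterol carrier (66 and 57.8 against 107 and 95.6). The decreases were genes that move sterol out of cells or lysosomes. Abca1, the cholesterol exporter, went from 184 and 196 CPM to 125 and 131 CPM, Abcg1 from 59.8 and 60.4 CPM to 35.8 and 43.1 CPM and Npc1 from 100.1 and 88 CPM to 75.5 and 73.1 CPM. The 3 changes were -0.56, -0.61 and -0.34. Without NT replicate 2, 0 of the 3 were called, and without 2 hpd replicate 1 only Abca1 was. Npc1 was not called in DESeq2, with its scaling in edgeR, without a count filter, with the compared libraries alone, or when any NT, 1 hpd, 2 hpd or 6 hpd library was left out. Of 19 tested genes of fatty acid synthesis and desaturation, 11 rose and 0 fell, beside the same shares over gene TUs, with a median of 0.51. Elovl6, an elongase, had 674 and 664 CPM in NT and 1163 and 956 CPM at 2 hpd, Scd2, a desaturase, 454 and 427 and then 658 and 695 CPM, and Me1, the malic enzyme, 159 and 142 and then 267 and 212 CPM. In these the 2 hpd samples lay above NT, but 4 of the 19 rose without NT replicate 2 and 7 without 2 hpd replicate 1. With 2 hpd replicate 2 left out, 1 fell.

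Promoters of 4 sterol genes are printed to show the elements that the SREBP pathway is known to use. Each window holds 250 bases before the RefSeq start and 50 after it on GRCm38.p6, on the plus strand, and the sequences are from RefSeq. Capitals mark CCAAT, the NF-Y element, on either strand, where its complement reads ATTGG. In Hmgcs1 they also mark TCACCCCAC, a match to the sterol regulatory element searched as TCACNCCAC. The windows are chr13:119690101-119690400 (Hmgcs1), chr13:8885356-8885655 (Idi1), chr10:76531355-76531654 (Lss) and chr5:28071162-28071461 (Insig1). The RefSeq start of Lss lies 8416 bp past the start of its TU, and the others lie within 58 bp of theirs.
Hmgcs1: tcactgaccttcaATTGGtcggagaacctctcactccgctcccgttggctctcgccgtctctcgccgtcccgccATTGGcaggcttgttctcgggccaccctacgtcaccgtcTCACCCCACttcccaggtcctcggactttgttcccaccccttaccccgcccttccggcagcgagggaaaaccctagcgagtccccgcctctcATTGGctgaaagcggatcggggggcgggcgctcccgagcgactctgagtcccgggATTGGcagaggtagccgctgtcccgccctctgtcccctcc
Idi1: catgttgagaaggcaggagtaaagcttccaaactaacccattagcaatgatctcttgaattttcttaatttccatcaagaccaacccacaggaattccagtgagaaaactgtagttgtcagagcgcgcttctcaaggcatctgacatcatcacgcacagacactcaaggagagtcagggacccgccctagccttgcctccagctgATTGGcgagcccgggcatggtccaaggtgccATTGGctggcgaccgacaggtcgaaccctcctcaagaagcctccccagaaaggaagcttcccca
Lss: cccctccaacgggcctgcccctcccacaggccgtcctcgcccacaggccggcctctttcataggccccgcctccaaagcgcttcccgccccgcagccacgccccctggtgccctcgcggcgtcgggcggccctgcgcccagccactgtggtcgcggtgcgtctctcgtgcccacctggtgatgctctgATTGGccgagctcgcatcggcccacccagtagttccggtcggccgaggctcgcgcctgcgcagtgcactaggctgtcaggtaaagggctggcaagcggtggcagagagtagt
Insig1: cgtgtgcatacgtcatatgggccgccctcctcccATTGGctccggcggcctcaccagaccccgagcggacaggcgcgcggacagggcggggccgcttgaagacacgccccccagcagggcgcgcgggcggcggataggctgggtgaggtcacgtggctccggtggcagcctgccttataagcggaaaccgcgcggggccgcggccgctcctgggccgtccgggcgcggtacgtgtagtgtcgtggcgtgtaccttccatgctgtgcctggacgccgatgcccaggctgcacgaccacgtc
The Hmgcs1 window holds 4 CCAAT elements and 1 sterol element, that of Idi1 holds 2 CCAAT, and those of Lss and Insig1 hold 1 each. Of the 19 genes of the cholesterol list with a promoter in the table, 15 hold CCAAT and 1, Hmgcs1, the sterol element in these letters. Over the promoters of all tested genes the shares are 39.0% and 1.04%. A missing match says only that these letters are not in the window.

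**Figure D3:**
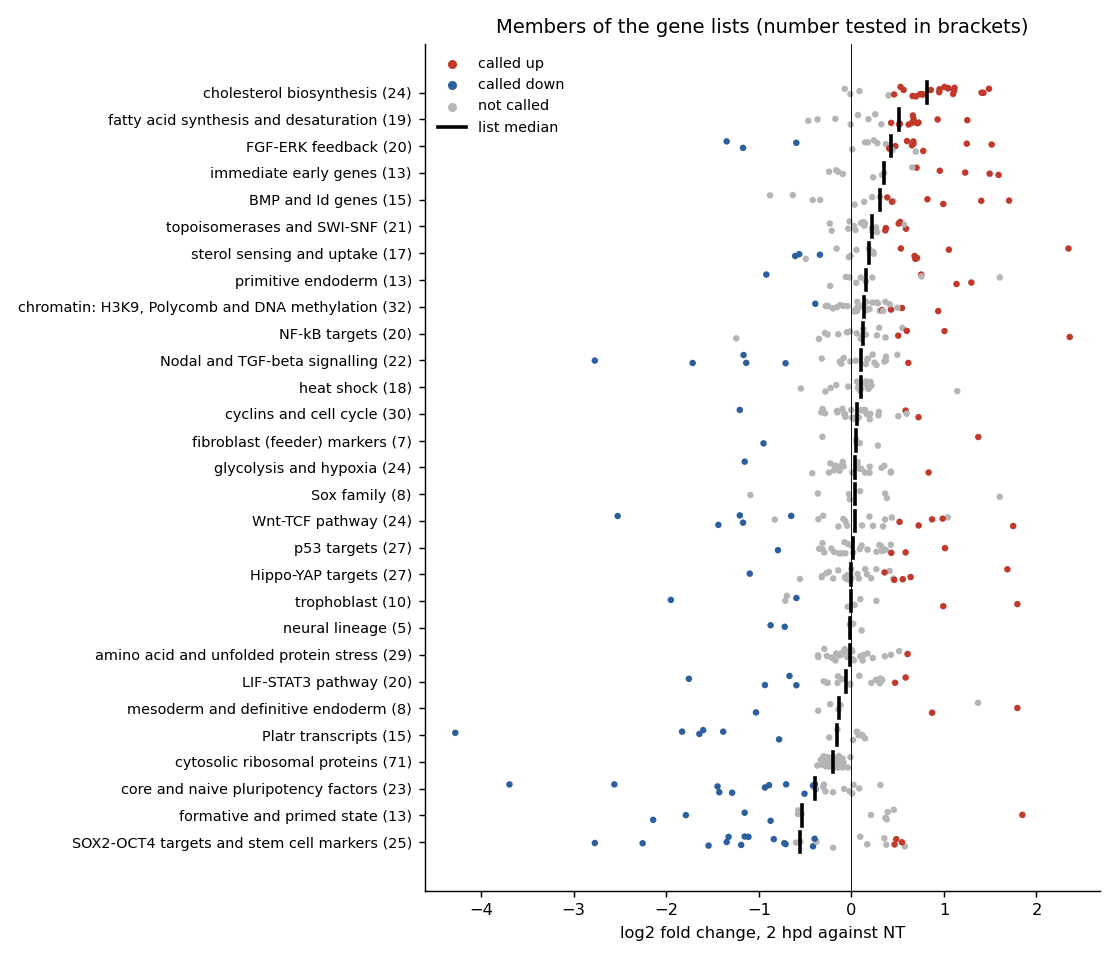
Log2 fold changes at 2 hpd against NT of the tested members of each gene list, ordered by list median (black bar) and coloured by call. Cholesterol biosynthesis stands at one end with a median of 0.81, and SOX2-OCT4 targets at the other with -0.55, while all 71 cytosolic ribosomal protein genes lie below 0 with none called.

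In the LIF and STAT3 pathway, which holds mESC in self-renewal, both receptor chains fell. Lifr went from 199 and 179.6 CPM to 60.1 and 51.9 CPM (-1.76 ± 0.13, SE, adjusted p = 8.57e-07) and Il6st, which encodes gp130, from 221 and 216 CPM to 149 and 140.5 CPM (-0.59 ± 0.11). The feedback inhibitor Socs2 and the target Klf4 fell as well (-0.67 and -0.93). Stat3, the signal transducer, rose from 159.7 and 152 CPM to 239 and 229.5 CPM (0.59 ± 0.10), and Jak1, the kinase, from 66.4 and 58.2 CPM to 93.8 and 79 CPM, a call lost without NT replicate 2 or 2 hpd replicate 1. In total 2 of the 20 genes rose and 4 fell, where 6.88% of gene TUs rose and 5.34% fell, so no rise of the list is read from the 2. The groups of Lifr, Il6st and Stat3 do not overlap.

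Feedback genes of the FGF and ERK pathway report on receptor signalling, and the medium of both groups held a MEK inhibitor. Of 20 tested, 9 rose and 3 fell, beside 6.88% and 5.34% over gene TUs, with a median of 0.43. Spry1 and Spry2, inhibitors of receptor signalling, went from 46.6 and 48.4 CPM to 72.9 and 71.2 CPM and from 62.2 and 71.4 CPM to 100.002 and 113 CPM. Spred2, an inhibitor of Ras and Raf, went from 288 and 269 CPM to 487 and 401 CPM, and Phlda1 from 0.875 and 1.09 CPM to 2.93 and 2.69 CPM. All 2 hpd samples of these genes lay above NT. The ligand Fgf4, described above, and the effectors Etv1 and Myc fell (-0.60 ± 0.15 and -1.17 ± 0.31, SE). The call of Myc was lost with the compared libraries alone and without NT replicate 1 or 2 hpd replicate 1. Myc was not called in DESeq2, and without NT replicate 2 neither Etv1 nor Myc was, so that 5 genes of the list rose and 1 fell.

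Among Nodal and TGF-beta genes, 5 of 22 fell and 1 rose (5.34% and 6.88% over gene TUs). Those that fell encode ligands, inhibitors and a partner factor. Lefty1, an inhibitor of Nodal, went from 3.57 and 4.36 CPM to 0.354 and 0.818 CPM (-2.77 ± 0.36, SE), Inhbb, an activin subunit, from 14.3 and 17.8 CPM to 3.69 and 6.14 CPM (-1.72 ± 0.22), Gdf3 from 59.1 and 62.3 CPM to 34.7 and 39.4 CPM and Foxh1, the DNA-binding partner of SMAD2, from 23 and 22.7 CPM to 9.81 and 10.6 CPM. Fst, follistatin, which binds activin, was the fifth (-1.14 ± 0.31, named after its value was seen). No sample of 1 group crossed into the other in the first 4 genes. The receptor Tgfbr1 rose (0.61 ± 0.15) and was not called without NT replicate 2 or without 2 hpd replicate 1. Without NT replicate 1, 2 genes of the list rose, and without 2 hpd replicate 2, 4, while 3 fell with 50 fragments required as a mean. Nodal itself, added after its value was seen, had 77.3 and 80.2 CPM in NT and 78.3 and 97.2 CPM at 2 hpd.

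Of 15 BMP and Id genes 6 rose and 0 fell, beside 6.88% and 5.34% over gene TUs, with a median of 0.31. Smad6, an inhibitor of BMP signalling, went from 64 and 57.1 CPM to 114 and 99.94 CPM and Id2, an inhibitor of bHLH factors, from 2.96 and 3.56 CPM to 7.03 and 10.3 CPM. Atoh8, a bHLH factor, went from 0.538 and 0.581 CPM to 1.97 and 1.69 CPM, and Gata2, a zinc finger factor, from 2.02 and 2.83 CPM to 4.4 and 5.26 CPM. The groups of these 4 genes are separate, but Gata2 was not called with total counts only. Atoh8 and Gata2 also lost their calls without NT replicate 1 or NT replicate 2, among others. Without NT replicate 2 the count was 2, and without NT replicate 1 or 2 hpd replicate 1 it was 3. The Wnt and TCF list split evenly, with 5 of 24 up and 5 down, beside the same shares over gene TUs. The receptors diverged, Fzd5 from 107 and 118 CPM to 38.6 and 44.6 CPM and Fzd7 from 19.99 and 14.5 CPM to 35.3 and 33.1 CPM. Notum, an extracellular inhibitor of Wnt, fell from 8.35 and 9.81 CPM to 1.67 and 1.46 CPM (-2.53 ± 0.24, SE), as did the cyclin Ccnd1 (38.1 and 40.4 CPM against 16.8 and 17.2 CPM) and the repressor Tcf7l1 (531 and 543 against 387 and 296). Axin2, a direct target, rose by 0.52 ± 0.12, a call lost with total counts only and without any of NT replicate 1, NT replicate 2 or 2 hpd replicate 2. Cdx1, a caudal homeobox factor, rose too (0.87 ± 0.21), a call lost without NT replicate 2 or 2 hpd replicate 1. Up calls in the list numbered 2 without NT replicate 2, and 3 without NT replicate 1 or without 2 hpd replicate 1.

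Early response genes rose in part. Of 13 tested, 5 rose and 0 fell, with a median of 0.35 that was 0.62 without 2 hpd replicate 1 and 0.14 without 2 hpd replicate 2. Apart from Atf3 these were Ier5 (4.98 and 4.8 CPM against 9.0 and 9.99 CPM), Zfp36, an mRNA decay factor (8.21 and 7.41 against 12.2 and 13.3), and the AP-1 genes Jun and Fos, Jun with 0.471 and 0.363 and then 1.16 and 1.23 CPM, and Fos, named after its value was seen, with 0.808 and 1.6 and then 2.48 and 3.16 CPM. In DESeq2, with total counts only, with 50 fragments required as a mean, or with any 1 of the 4 samples left out, 2 or 3 of the list rose, and without 2 hpd replicate 2, 1 fell. Of 20 NF-kB targets 4 rose, where 6.88% of all gene TUs did, among them the adhesion molecule Icam1 (68.6 and 69.6 CPM against 93.9 and 102 CPM) and the proteoglycan Sdc4 (21.9 and 30.2 against 47.7 and 56.9), and 2 rose without NT replicate 1 or without NT replicate 2, while 1 fell with total counts only, with 50 fragments required as a mean or without 2 hpd replicate 2. Calls in the stress lists were not above the shares over gene TUs (6.88% up and 5.34% down). In the amino acid and unfolded protein list 1 of 29 rose, the chaperone Hsp90b1 (205 and 177 CPM against 294 and 288 CPM), while 2 rose in DESeq2 and 1 fell with total counts only. Of 18 heat shock genes 0 were called, and the smallest p was that of Hspe1 (68.4 and 72.3 CPM against 58.3 and 57.4 CPM, adjusted p = 0.0854). Hspe1 was called down with total counts only, which called 2 of the list, and with 50 fragments required as a mean.

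Trp53, which encodes p53, fell from 115 and 107 CPM to 57.9 and 70.4 CPM (-0.79 ± 0.12, SE). Of the 27 genes of its list 3 rose. These were the kinase Plk3 (1.01 ± 0.19), the cell cycle inhibitor Cdkn1a (137 and 146 CPM against 179 and 246 CPM) and the receptor Eda2r (0.43 ± 0.12). The calls of Cdkn1a and Eda2r were lost with total counts only and without NT replicate 1 or 2. In the cell cycle list, Cdk6, a cyclin D kinase, rose from 340.2 and 357 CPM to 652 and 501 CPM, and its partner Ccnd1 fell, and 27 of the 30 genes were not called. Of 27 Hippo and YAP genes 5 rose and 1 fell. F3, tissue factor, went from 3.77 and 2.47 CPM to 9.25 and 11 CPM, and Wwc1, Ptpn14 and Yap1 rose by 0.64, 0.56 and 0.46, calls that were all lost without NT replicate 2. Ctgf, a secreted matrix protein and standard YAP target, was the decrease (7.27 and 7.56 CPM against 3.74 and 3.16 CPM, -1.10 ± 0.20). In glycolysis and hypoxia Pfkfb4 rose (0.83 ± 0.12), Bnip3 fell (-1.15 ± 0.22, not called without 2 hpd replicate 1) and 22 of 24 were not called. Shares over gene TUs were 6.88% up and 5.34% down, close to those of the cell cycle, glycolysis and, with 1 gene up under total counts only, p53 lists, so no change of these lists as a whole is read from the counts. Other settings also added calls, with 5 p53 genes up in DESeq2, 3 down with total counts only, 3 cell cycle genes down without 2 hpd replicate 2 and 3 glycolysis and hypoxia genes up without NT replicate 1.

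Of 32 genes of H3K9 methylation, Polycomb and DNA methylation, 4 rose and 1 fell, beside 6.88% that rose and 5.34% that fell over gene TUs. The median of the list was 0.14 (0.02 with total counts only). Jarid2 went from 1103 and 1334 CPM to 1903 and 1656 CPM, Suv39h1, an H3K9 methyltransferase, from 42.9 and 38.9 CPM to 56.2 and 53.8 CPM, Kdm2b, which recruits Polycomb to CpG islands, from 80.8 and 83.1 CPM to 108 and 98.2 CPM, and Phf19, a Polycomb cofactor, from 2.69 and 2.54 CPM to 4.8 and 5.26 CPM. Uhrf1, which guides maintenance methylation, went from 384 and 379.7 CPM to 282 and 301 CPM, and with the compared libraries alone or without NT replicate 1, NT replicate 2 or 2 hpd replicate 1 it was not called and 0 of the list fell. Kdm2b was not called with total counts only, without a count filter or with the compared libraries alone, among other settings. The call of Phf19 was lost with total counts only and without either NT replicate, among others. Of topoisomerases and SWI-SNF subunits 5 of 21 rose, among them Top1, Top2a, Top2b and Arid2, by 0.59, 0.37, 0.53 and 0.51. With total counts only, 1 gene of the chromatin list rose and 4 fell. Without NT replicate 2, 1 chromatin gene and 0 of the topoisomerase list rose, without NT replicate 1, 1 and 1, and without 2 hpd replicate 1, 0 and 0. The 71 cytosolic ribosomal protein genes all had values below 0, with a median of -0.20 (-0.17 with the scaling of DESeq2 and -0.31 with total counts only), and 0 were called. With total counts only or without NT replicate 1, 2 of them were called down, and without 2 hpd replicate 2, 7. The smallest p among them was that of Rpl39 (adjusted p = 0.0724), which was called in each of these settings.

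Among TUs with a gene symbol 6.88% rose and 5.34% fell. Among those without, 181 of 13462 (1.34%) rose and 784 (5.82%) fell, with a median log2 fold change of -0.20 against 0.05 for gene TUs. Extragenic TUs fell in 483 of 7793 cases and rose in 115, TUs antisense to a gene body fell in 158 of 2831 and rose in 40, and those antisense to a transcription start fell in 99 of 2244 and rose in 12. Of 12111 protein-coding gene TUs 7.65% rose and 4.99% fell, and of 2022 lncRNA TUs 4.15% rose and 7.62% fell. Level moved with direction. Of the 7153 TUs with the fewest fragments 42 rose and 296 fell, and of the 7114 with the most 733 rose and 329 fell. TUs that rose had a median NT level of 36.6 CPM and a median length of 52438 bp, and those that fell 8.74 CPM and 17449 bp, beside 12576 bp for all. Where the mean reached 50 fragments or more, 1091 rose and 964 fell. The part of level and length in these shares was not tested.

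**Figure D4:**
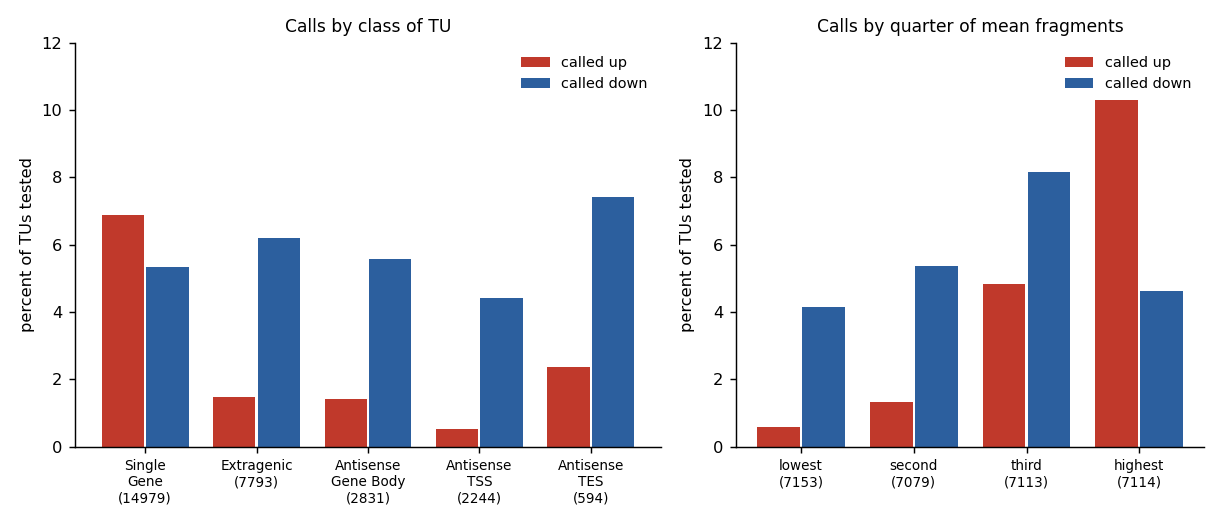
Percentage of tested TUs called up (red) and called down (blue) at 2 hpd against NT, by class of TU on the left and by mean fragments, in 4 groups of similar size, on the right, with the number tested in brackets. Among Single Gene TUs 6.88% rose and 5.33% fell, whereas in each of the 4 other classes drawn fewer rose than fell, and the share that rose climbs from 0.59% in the lowest group to 10.3% in the highest.

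The unannotated TU that fell with the smallest p lies opposite Top1. This TU (transcribed-unit_5226, chr2:160637513-160656258, minus strand) overlaps the start of Top1 by 10372 bp and held 65.2 and 61.3 CPM in NT and 1.26 and 1.64 CPM at 2 hpd (-5.45 ± 0.18, SE, adjusted p = 1.28e-10). Top1 on the plus strand held 253 and 223 CPM and then 419.9 and 296 CPM (0.59 ± 0.15, adjusted p = 0.0231), a call lost without NT replicate 1, NT replicate 2 or 2 hpd replicate 1. A second TU inside the Top1 body on the minus strand was not called. The TU opposite Suv39h1 (transcribed-unit_39480, chrX:8048533-8079798) spans the whole gene and went from 71.2 and 69.3 CPM to 14.1 and 14.7 CPM (-2.29 ± 0.13). Suv39h1 rose by 0.43 ± 0.10, a call lost with total counts only, with the 4 samples fitted alone, and without NT replicate 2 or 2 hpd replicate 1. In both pairs the strands moved in opposite directions. Positions are as deposited, on mm10, and alignments were split by strand before TUs were defined.

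Other antisense decreases had partners that fell too. The TU opposite Hcrtr2, the orexin receptor, went from 47.5 and 55.6 CPM to 4.25 and 4.27 CPM (-3.60 ± 0.16, SE), and Hcrtr2 itself from 1.48 and 1.89 CPM to 0.556 and 0.526 CPM (adjusted p = 0.0117). The TU opposite Ak9, an adenylate kinase, went from 17.2 and 20.6 CPM to 1.97 and 2.05 CPM, and Ak9 from 11.5 and 11.8 CPM to 7.38 and 6.02 CPM (adjusted p = 0.00467). Over all overlapping pairs on opposite strands in which both TUs were called, both fell in 220, both rose in 56 and the directions differed in 33. The window around the start of the TU opposite Top1 is printed because this TU had the smallest p of the unannotated ones (chr2:160656209-160656508, minus strand, 250 bases before the deposited start and 50 after it, GRCm38.p6). Capitals mark its 1 SOX core, CATTGT, and it holds no octamer.
transcribed-unit_5226: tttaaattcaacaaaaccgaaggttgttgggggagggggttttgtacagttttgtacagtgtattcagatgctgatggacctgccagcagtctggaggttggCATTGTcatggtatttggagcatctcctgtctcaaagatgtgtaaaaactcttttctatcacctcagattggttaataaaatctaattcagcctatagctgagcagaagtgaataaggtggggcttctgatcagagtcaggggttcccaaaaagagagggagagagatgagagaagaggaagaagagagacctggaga

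The 4 unannotated TUs with the smallest p among increases were also followed. An extragenic TU on chromosome 4 (transcribed-unit_9799, chr4:136645844-136835737, minus strand), which ends 43073 bp before the start of Kdm1a, a histone demethylase gene on the same strand, went from 34.4 and 33.7 CPM to 85.2 and 76.4 CPM (1.25 ± 0.10, SE). The TU opposite the non-coding gene Gm31786 (transcribed-unit_17916) went from 23.4 and 20.1 CPM to 53.4 and 53.3 CPM and that opposite Letm2 and Gm31288 (transcribed-unit_17790) from 87.8 and 92.3 CPM to 162 and 160.1 CPM. The fourth (transcribed-unit_16261) starts 187 bp inside Cacng8, a channel subunit, on the opposite strand. It rose from 6.53 and 6.83 CPM to 17.9 and 16.5 CPM, and Cacng8 rose from 15 and 12.4 CPM to 28.8 and 27.1 CPM (1.03 ± 0.15). All 4 were separate from NT in both 2 hpd samples.

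Some gene TUs start before the gene and take in signal from there. Those of Pou5f1, Fgf4, Cdk6, Cabs1 and Gm35545 start 20268, 9853, 49937, 9695 and 41345 bp before the matched RefSeq start. Other gene TUs begin inside the annotated gene, as Aoah does, and then cover only its distal part. Of 801 gene TUs called down, 55 (6.87%) started more than 5 kb inside the deposited transcript, and of the 340 that fell over 2-fold, 45 (13.2%) did, against 740 of 14997 (4.93%) overall and 19 of 1032 (1.84%) of those that rose. Gm33006, which starts 13.5 kb inside its gene, is a further example among the leading decreases, and Tnfaip2, which starts 6.4 kb inside, among the increases (0.135 and 0.509 CPM against 1.01 and 2.34 CPM, not called without NT replicate 1, NT replicate 2 or 2 hpd replicate 2).

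Promoter windows were searched for the letters of known elements, as a description. A RefSeq promoter was matched for 11316 of the 14997 gene TUs. CATTGT stood in 13.3% of 566 promoters of genes that fell, 7.13% of 813 that rose, 7.54% of all tested and 12.6% of the 32851 promoters in the table. Limited to TUs that start within 1000 bases of the promoter start, the shares were 12.7%, 6.36% and 6.86%. The octamer ATGCAAAT stood in 2.83% of promoters of genes that fell, 1.72% of those that rose and 1.63% of all tested. CCAAT stood in 37.3%, 41.0% and 39.0%, and the sterol element in 1.41%, 1.60% and 1.04%. The AP-1 element TGANTCA stood in 4.42%, 5.41% and 4.89%, and the NF-kB element GGGANTTTC in 1.24%, 0.861% and 0.875%. Both strands were searched, and a match is a description of letters and not a bound site. The promoter of Tubb3, a neuronal tubulin that fell, is shown as an example with 2 SOX cores, in capitals (chr8:123411303-123411602, plus strand, GRCm38.p6).
Tubb3: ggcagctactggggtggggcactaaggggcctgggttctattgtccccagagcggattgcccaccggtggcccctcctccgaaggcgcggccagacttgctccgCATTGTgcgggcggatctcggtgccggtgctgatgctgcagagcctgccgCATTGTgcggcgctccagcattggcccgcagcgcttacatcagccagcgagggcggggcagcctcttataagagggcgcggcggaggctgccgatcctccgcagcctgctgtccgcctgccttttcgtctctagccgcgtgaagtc

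The 2 hpd samples were set against 1 hpd directly, to find what was still moving. Of all TUs 62 (0.218%) were called, 6 higher and 56 lower at 2 hpd. Gm35545, a non-coding gene, had 12.4 and 10.4 CPM at 1 hpd and 2.58 and 1.81 CPM at 2 hpd (-2.36 ± 0.21, SE, adjusted p = 0.00038), beside 10.7 and 11.3 CPM in NT. Ncam1, a neural adhesion molecule, had 74.5 and 67.4 CPM and then 27.9 and 18.1 CPM (-1.62 ± 0.16), beside 87.8 and 90.9 CPM in NT, and Ndrg1, a stress-regulated gene, 11.1 and 14.7 CPM and then 3.89 and 3.27 CPM (-1.85 ± 0.19), beside 10.3 and 10.4 CPM in NT. At 1 hpd none of these 3 had passed the test against NT, with log2 fold changes of 0.05, -0.33 and 0.32. Aoah had 80.4 and 70.9 CPM at 0.5 hpd and 22.1 and 21 CPM at 1 hpd and was lower again at 2 hpd (-1.19 ± 0.12). Klf2 had 13.5 and 12.3 CPM at 0.5 hpd, 6.46 and 7.29 CPM at 1 hpd and 6.67 and 6.35 CPM at 6 hpd, and its 2 hpd level did not pass the test against either neighbour. Among those higher at 2 hpd were Erap1, an aminopeptidase of antigen processing (4.83 and 5.47 CPM against 10.9 and 9.64 CPM), Dusp10, a phosphatase of stress kinases (27.6 and 29 against 45 and 41.4), and Mbnl2 (205 and 218 against 339 and 292). The count depended on single samples and fell to 11 or 12 when the first or second 1 hpd replicate was left out, to 25 or 27 for those of 2 hpd, and to 39 without the second 6 hpd replicate.

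By 6 hpd, 221 TUs (0.777%) differed from 2 hpd, 74 higher and 147 lower. Sterol genes had returned toward NT. Of the 24 cholesterol genes 16 were called in this test and 0 in that against 1 hpd. Against the same NT samples, the median change of the list was 0.29 at 0.5 hpd and 0.70 at 1 hpd, then 0.81 at 2 hpd, and 0.05 by 6 hpd. Hmgcs1 stood at 186 and 148 CPM at 6 hpd (-1.12 ± 0.13 against 2 hpd, SE, adjusted p = 0.000559) and Lss at 70.3 and 56.3 CPM (-1.26 ± 0.13). Eomes was also lower again at 6 hpd (3.16 and 3.49 CPM) and so was Lingo1, a neuronal membrane protein, at 5.62 and 5.07 CPM after 23.1 and 17.7 CPM at 2 hpd. Fblim1, a filamin binding protein, and Ctnnd2, a catenin, went on falling, Fblim1 from 67.6 and 70.2 CPM to 41.2 and 36 CPM and Ctnnd2 from 26.7 and 19.5 CPM to 7.87 and 10.4 CPM. Nell1 went on rising, from 23.5 and 19.3 CPM to 49.7 and 68.3 CPM (1.46 ± 0.16). Kcnc1 and Stum were called higher too, but Stum not without any 1 of the 4 samples compared, and Kcnc1 not without 2 hpd replicate 1 or 6 hpd replicate 1. Map2k6, a kinase upstream of p38, fell at 2 hpd (16.6 and 18.4 CPM after 32.6 and 36.8 CPM at 1 hpd) and was higher at 6 hpd (28.9 and 34.5 CPM). The count of 221 was 75 or 99 when the first or second 6 hpd replicate was left out and 105 without the second 2 hpd replicate.

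**Figure D5:**
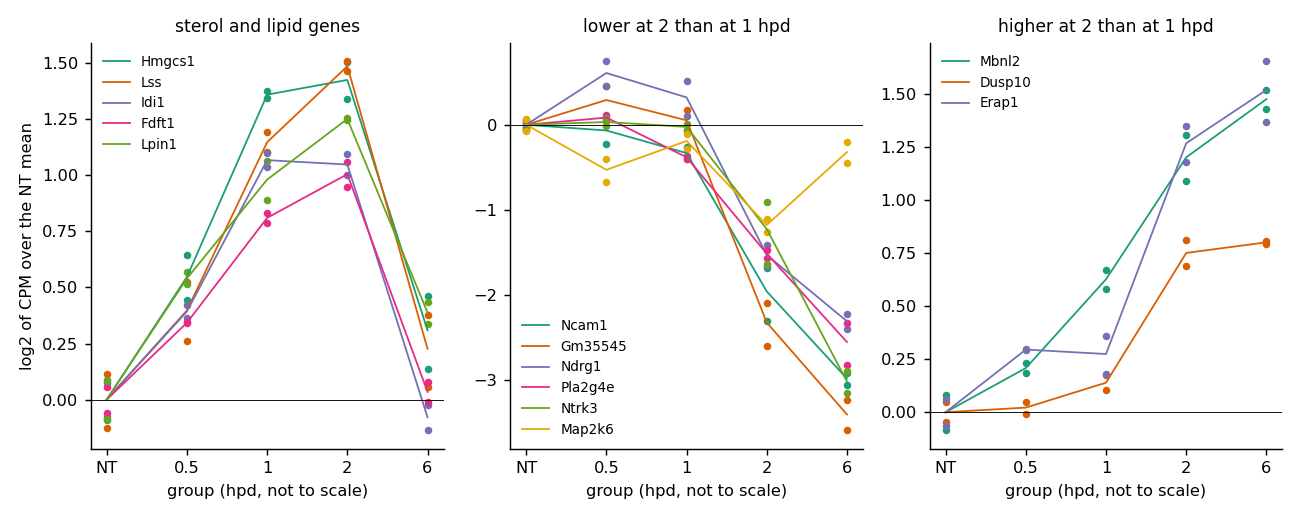
Change of named genes over the NT mean (log2 of CPM over the mean NT CPM) in each group, with points for replicates and lines through group means, at NT and 0.5, 1, 2 and 6 hpd (axis not to scale). The 5 sterol and lipid genes peak at 1 or 2 hpd and are lower at 6 hpd, genes lower at 2 than at 1 hpd include Ncam1 and Gm35545, and Erap1, Mbnl2 and Dusp10 are higher at 2 than at 1 hpd.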

How the data were processed

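E14 mESC with FKBP-tagged SOX2 were profiled by TT_chem-seq at 5 time points with 2 replicates each. The authors aligned read pairs to mm10 with BWA (0.7.17-r1188), kept alignments of mapping quality 10 or more with SAMtools (1.10), removed duplicates with Picard (2.12.0), split alignments by strand, defined TUs on pooled data with a hidden Markov model, kept those above 25 fragments and assigned RefSeq genes. The deposited table holds raw fragment counts per TU and replicate, and a second deposited table gives positions and classes. Whether counting used strand again, and whether positions start from 0 or 1, is not given in the sources used here. RefSeq sequences are of GRCm38.p6.

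From the counts, TUs above 10 fragments in 2 or more of the 10 libraries were kept (28459 of 40779, leaving out 0.316% of fragments), scaled by TMM and fitted with a group term in 1 quasi-likelihood model over all 10 libraries (edgeR 4.0.16, limma 3.58.1, R 4.3.3). Contrasts were 2 hpd against NT, 2 hpd against 1 hpd and 6 hpd against 2 hpd, with Benjamini-Hochberg adjustment over all TUs and a threshold of 0.05. Fold changes are log2 values of that model with their SE, and CPM use TMM-scaled totals. Totals ran from 11131490 to 25854106 fragments. The fit was tested on simulated data.

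The members, gene lists and rules were chosen with earlier results of these data known. Named were, among called TUs with a gene symbol, the 12 with the smallest p and the 5 with the largest change in each direction (at least 2 CPM in the higher group), up to 4 called members per list and direction or else the member with the smallest p, 4 unannotated TUs in each direction, genes that the study discusses (Sox2, Klf2, Hmgcs1, Ctgf, Platr11, Top1 and Suv39h1), up to 6 per direction also called against 1 hpd and up to 6 also called between 6 and 2 hpd, and TUs within 50 kb of the leading genes. Genes outside this rule are marked in the text, except overlapping partners of a named TU and those nearest the threshold, and a few genes that the rule names are not reported here. The alternatives tried were DESeq2 (1.42.0), scaling by RLE or by total counts, all TUs without a filter or a stricter filter (mean of 50), a fit restricted to the libraries compared, a replicate block, and the omission of each library in turn.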

Additional observations from a re-analysis of the deposited data

Results flagged for a closer look

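Among the named TUs called at 2 hpd against NT, some also differed between 2 hpd and a neighbouring time point in a direct edgeR test, so their change against the shared NT samples was not the same at both times. Against 1 hpd, 12 were lower at 2 hpd on the log2 scale: Gm35545 by -2.36, Ndrg1 by -1.85, Ncam1 by -1.62, Aoah and Ntrk3 by -1.19 each, Adap1 by -1.14, Pla2g4e by -1.13, the TU opposite Hcrtr2 (transcribed-unit_20265) by -1.08, Map2k6 by -0.99, Ttn by -0.82, Tubb3 by -0.77 and Gm36038 by -0.62. Higher at 2 than at 1 hpd were Erap1 by 0.99, Dusp10 by 0.61 and Mbnl2 by 0.58.

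Between 2 and 6 hpd the sterol and lipid genes were lower at the later time, Lss by -1.26, Idi1 by -1.13, Hmgcs1 by -1.12, Aacs by -1.11, Fdft1 by -0.97, Lpin1 by -0.86 and Insig1 by -0.83. Eomes (-1.33), Lingo1 (-1.94) and Icam1 (-0.50) had risen at 2 hpd and were also lower at 6 hpd. Genes that had fallen at 2 hpd and were lower again at 6 hpd were Ntrk3 (-1.79), Ctnnd2 (-1.33), Adamtsl1 (-1.14), Pla2g4e and Ncam1 (-1.03 each), Fblim1 (-0.84), Gm36038 (-0.79), Tubb3 (-0.77) and Socs2 (-0.45). Nell1 (1.46), Kcnc1 (1.37), Stum (1.03) and Dab2 (0.62) had risen and were higher again, while Map2k6 (0.86) and Lama1 (0.56) had fallen and were higher at 6 hpd. The decrease of Adamtsl1 at 2 hpd was not called in DESeq2, without a count filter, with the compared libraries alone or without NT replicate 2 or 2 hpd replicate 2, among other settings, nor the increase of Lingo1 with total counts only or without NT replicate 2 or 2 hpd replicate 1. Between 6 and 2 hpd, Socs2 was not called when any library was left out or with total counts only, Dab2 not when any NT, 1 hpd, 2 hpd or 6 hpd library was, and Stum and Tubb3 not without any 1 of the 4 samples compared. Icam1 and Lama1 lost this call without 2 hpd replicate 2 or either 6 hpd replicate, Ncam1 without 2 hpd replicate 1 or either 6 hpd replicate, Kcnc1 without 2 hpd replicate 1 or 6 hpd replicate 1, Eomes and Pla2g4e without 6 hpd replicate 1, and Gm36038 and Map2k6 without 6 hpd replicate 2. Between 2 and 1 hpd, Dusp10, Erap1, Gm36038 and Tubb3 were not called without any 1 of the 4 samples compared, and Mbnl2, Ttn, transcribed-unit_20265, Adap1, Map2k6 and Ntrk3 not without some of them. Ntrk3 had 24 and 26.1 CPM in NT, 24 and 25.2 CPM at 1 hpd, 13.3 and 8.06 CPM at 2 hpd and 2.81 and 3.38 CPM at 6 hpd, so its 1 hpd samples lay at the NT level, and Nell1 had 6.19 and 7.05, 11.4 and 14, 23.5 and 19.3 and 49.7 and 68.3 CPM.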

How the results depend on the processing

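With DESeq2, 1056 TUs fell, 605 fell over 2-fold and 104 differed between 2 and 1 hpd. With a replicate block, 2713 rose, 2733 fell, 270 differed between 2 and 1 hpd and 1005 between 6 and 2 hpd, and every call made without the block was kept (2798, 62 and 221). The replicate numbers were not treated as pairs, because the labels give them no shared origin and the correlations of deviations, all positive, ran from 0.0742 to 0.291 over 10 pairs of groups (0.249 for NT and 2 hpd) and did not all exceed 0.1. Under the block, 8 chromatin genes rose, and 8 ribosomal protein genes, 2 heat shock genes and Sox21 fell. With total counts only, 163 rose over 2-fold, and with a mean of at least 50 fragments 116 rose and 377 fell over 2-fold. Leaving out 1 library gave 387 to 2065 TUs that rose, 796 to 1654 that fell, 147 to 263 that rose over 2-fold, 522 to 1063 that fell over 2-fold, 11 to 72 between 2 and 1 hpd and 75 to 235 between 6 and 2 hpd. Without NT replicate 2, 1151 of 1183 calls were shared with the full fit in the same direction, without 2 hpd replicate 1, 1348 of 1429, without NT replicate 1, 1793 of 2130, and without 2 hpd replicate 2, 2256 of 3719. In DESeq2, 2147 of 2392 were shared. The signs of 2 uncalled TUs turned. Sox2 stood at -0.020 with total counts only and between -0.013 (without NT replicate 1) and 0.21 with a library left out, and transcribed-unit_29172 opposite Slc28a3 between -0.96 and 0.15 (without NT replicate 2). Of 149 named TUs called, 21 lost the call in an alternative setting and 40 when 1 library was left out, and none turned its sign. With total counts only, the list medians of the Sox family, fibroblast, Nodal, Wnt (0.03 to -0.08), heat shock (0.10 to -0.02), p53, cell cycle and glycolysis lists turned from above to below 0. Leaving out a library turned others, among them mesoderm (-0.13 to 0.32) and amino acid stress (-0.02 to 0.20) without NT replicate 1 and sterol sensing (0.19 to -0.0023) without NT replicate 2. The medians of the trophoblast, neural and Hippo lists, close to 0, took either sign. The cause of these shifts was not tested. Of few-fragment TUs the depth limits the fold, as the intervals in the text show.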
